A study of Mus musculus with 18 samples.

Results

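The genes described here encode the machinery that copies DNA in the S phase of the cell cycle, measured in cultured mouse ovarian follicles. The list held 39 genes, taken by symbol, and each gene was represented by its probe set with 1 symbol and the highest mean log2(signal + 16) over all 18 arrays. Of the 39 genes, 38 had such a probe set, and 37 of these lay above the filter on low signal and were tested, out of 18193 genes with a probe set and 11238 genes tested in all. Chaf1a, the large subunit of the histone chaperone CAF-1, had no probe set with a single symbol. Tyms, thymidylate synthase, lay below the filter, with a mean log2 level of 4.83 against a threshold of 5.45, and its signals in the 3 vehicle arrays of 12 h were 16.2, 18 and 6.27. Orc1 lay just inside the filter, at 5.46. A log2 level or difference below is always on the log2(signal + 16) scale, which understates changes of dim probe sets.

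The follicles were preantral to small antral follicles of female C57BL/6Ntac mice aged 6 to 8 weeks, and each pool came from 7 animals. Each pool was divided over vehicle, 50 and 200 ng/mL recombinant AMH (anti-Müllerian hormone, which granulosa cells secrete and which belongs to the TGF-β family), all in medium that also held 80 IU/L FSH and 10 IU/L LH. Cultures were stopped after 12 or 24 h, with 3 pools at each time, which gave 6 groups of 3 arrays. The groups asked whether AMH dose changed transcript levels at each time, and the vehicle cultures also allow the 2 times to be compared. No group was collected before culture, so the direction between 12 and 24 h is not tied to the level in the ovary.

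Replication starts in G1, when the origin recognition complex (Orc1, Orc6), Cdc6 and Cdt1 load the MCM helicase (Mcm2 to Mcm7) onto origins, a step called licensing that geminin (Gmnn) limits by binding Cdt1. In S phase Cdc45, the GINS complex and Mcm10 turn the loaded helicase into an active fork, primase and the DNA polymerases copy the strands behind it, and the sliding clamp PCNA, placed by the RFC clamp loader, keeps the polymerases on DNA. In the growing follicle the dividing cells are chiefly granulosa and theca cells, while the oocyte is arrested in meiotic prophase and does not replicate its DNA. Many of these genes are known targets of E2F transcription factors, which bind TTT-starting GC-rich sites in their promoters at the G1/S boundary.

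One array was kept apart, replicate 3 of AMH 50 ng/mL at 12 h. Across probe sets its Pearson correlations with the remaining arrays were 0.604 to 0.624, against 0.904 to 0.992 among the other 17. It entered no result below unless that is said, so AMH 50 ng/mL at 12 h had arrays of 2 pools. The fitted differences of that group also draw on the vehicle and 200 ng/mL arrays of pool 3, and the plain mean of the 2 pools is given beside them. In that array 20 of the 37 genes lay below and 3 above all other 17 arrays, and their differences from vehicle of the same pool ran from -6.06 (Rpa1) to 1.79 (Prim1). The whole array was shifted, with a median difference of -0.78 over all tested genes against -1.12 for the list. The SD of the differences was 2.01 for both, and the share of all genes outside the other 17 arrays was not counted. The AMH 200 ng/mL array of the same pool also had the lowest median signal, 18.0 against 23.1 to 36.5 in the other 16 of the 17. The time comparison at 200 ng/mL is given with and without it. For the effect of 200 ng/mL at 12 h, only the genes with the smallest p are also given without its pool. Summed signals of the 12 granulosa markers tested lay between 5234 and 14887, which does not show that each marker was present. Mean signals of Fshr were 15.8 in vehicle and 11.8 with 200 ng/mL at 12 h. Those of Amh were 10.1 to 18.8 in the groups of 24 h. Summed signals of the 17 oocyte markers ran from 829 to 13672, both in vehicle arrays of 12 h, and the share of each cell type was not measured. In such bulk samples fewer cells of a type and less RNA per cell cannot be told apart.

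The promoters of 4 genes with an E2F-type match and of Pcna, which had the smallest adjusted p of the list between 12 and 24 h, are shown first so that the matches can be seen in place. Promoter windows of 300 bases, 250 before and 50 after the annotated start, came from RefSeq on build GRCm38.p6 and matched 32 of the 39 genes. The octamers TTTCCCGC, TTTGGCGC, TTTCGCGC and TTTGCCGC were searched on both strands, and overlapping matches were both counted. The 200 bases before the start are printed on the strand of the gene, with the octamer matches in capitals. They lie at chr8:75109309-75109508 on the plus strand for Mcm5, chr1:128359706-128359905 on the minus strand for Mcm6, chr11:98907951-98908150 on the plus strand for Cdc6, chrX:93632156-93632355 on the minus strand for Pola1 and chr2:132253181-132253380 on the minus strand for Pcna.
Mcm5: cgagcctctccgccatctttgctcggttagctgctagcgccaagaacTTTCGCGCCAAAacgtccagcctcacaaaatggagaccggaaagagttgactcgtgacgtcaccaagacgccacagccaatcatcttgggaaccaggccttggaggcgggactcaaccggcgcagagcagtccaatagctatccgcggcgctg
Mcm6: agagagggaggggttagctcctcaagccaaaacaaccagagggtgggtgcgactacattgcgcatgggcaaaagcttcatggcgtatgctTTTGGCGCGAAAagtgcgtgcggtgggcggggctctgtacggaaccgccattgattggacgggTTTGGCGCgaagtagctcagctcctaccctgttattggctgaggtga
Cdc6: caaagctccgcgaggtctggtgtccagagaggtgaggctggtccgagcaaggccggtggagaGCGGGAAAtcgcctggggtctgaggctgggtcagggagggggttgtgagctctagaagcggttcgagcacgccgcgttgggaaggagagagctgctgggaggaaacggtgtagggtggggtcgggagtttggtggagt
Pola1: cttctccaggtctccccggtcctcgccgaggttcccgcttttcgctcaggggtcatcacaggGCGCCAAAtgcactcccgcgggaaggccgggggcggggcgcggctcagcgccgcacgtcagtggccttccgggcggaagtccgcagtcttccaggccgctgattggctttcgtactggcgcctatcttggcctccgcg
Pcna: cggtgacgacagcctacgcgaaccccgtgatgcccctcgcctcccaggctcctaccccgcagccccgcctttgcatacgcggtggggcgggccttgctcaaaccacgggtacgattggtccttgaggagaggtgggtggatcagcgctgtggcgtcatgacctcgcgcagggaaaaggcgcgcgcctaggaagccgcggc

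At least 1 of the 4 octamers lay in the window of 12 of the 32 genes (37.5%), against 4.81% of the 9127 tested genes with a window and 2.26% of all 32851 windows. In Mcm5, an MCM helicase subunit, TTTCGCGC and the reverse complement of TTTGGCGC overlapped in the run TTTCGCGCCAAA. Mcm6 held the mirror arrangement, TTTGGCGCGAAA, and a further TTTGGCGC that ended 39 bases before the start. The 200 bases of Pcna held none of these 4 octamers, which says only that these letters are not in this stretch. The CCAAT motif, also searched on both strands, lay in 22 of the 32 windows (68.8%), against 43.2% of the tested genes. Between 12 and 24 h in vehicle, the 12 genes with an octamer match had a median log2 difference of -0.46 and the 18 tested genes with a window but no match had -0.45.

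The larger difference in these data lay between culture times. In vehicle follicles 33 of the 37 genes had a lower mean at 24 h than at 12 h, with a median log2 difference of -0.44, against -0.00 over all 11238 genes, and 48.3% of all probe sets were lower. Lower values were found for all 6 polymerase and primase genes, all 5 helicase activation genes and 9 of the 11 licensing genes. No single gene of the list passed the threshold of 0.05 after adjustment over all probe sets (limma, Benjamini-Hochberg), where 292 of 22518 probe sets did (1.3%; 0.417% were lower at 24 h and past the threshold). At an unadjusted p under 0.05 there were 13 of the 37 genes, all lower at 24 h, against 18.6% of all probe sets in either direction and 7.91% lower. In 13 genes all 3 arrays of 24 h lay below all 3 of 12 h, against 11.5% of all probe sets, and in Rpa3 they lay above, against 13.5%.

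**Figure D1:**
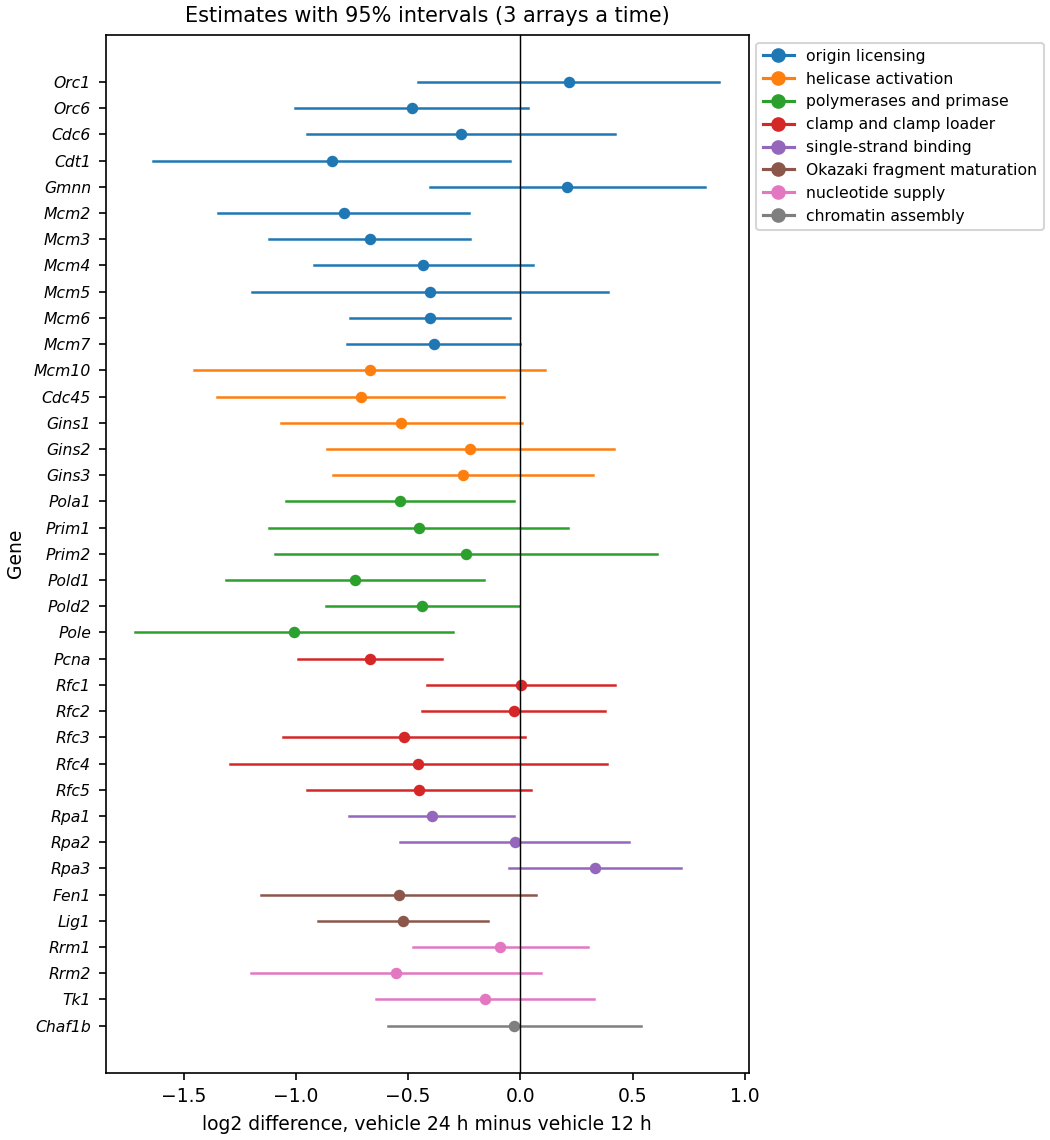
Log2 difference of vehicle 24 h minus vehicle 12 h for the 37 tested replication genes, with 95% intervals from the limma fit of the 6 vehicle arrays and colours for the role of each gene. The estimates of 33 genes lie below 0, and the intervals of 13 exclude 0, all of them below it.

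Among the licensing genes, the median difference was -0.40. Mcm2, a helicase subunit, had signals of 199, 345 and 279 in the vehicle arrays of 12 h and 116, 162 and 174 in those of 24 h. The 2 times did not overlap, the mean went from 275 ± 72.9 to 151 ± 31 (SD, n = 3 each), and the log2 difference was -0.79 (SE 0.25, adjusted p = 0.147). Mcm3 gave 361, 455 and 500.4 at 12 h and 219, 316 and 274 at 24 h, again without overlap, with a log2 difference of -0.67 (SE 0.20, adjusted p = 0.129). For Mcm6 the signals were 830.2, 1155 and 1040.4 at 12 h and 796, 755 and 709.9 at 24 h, which differed by -0.40 (SE 0.16, adjusted p = 0.221). All 6 MCM subunits of the helicase were lower at 24 h, and Mcm4, Mcm5 and Mcm7 had differences of -0.43, -0.40 and -0.39. Cdt1, the loading factor that geminin inhibits, varied widely between pools, with 438, 865 and 561 at 12 h and 215, 546 and 295 at 24 h. The 2 times overlapped for Cdt1. In each replicate number the 24 h value was the lower, but the labels give same-numbered arrays of the 2 times as separate pools. The log2 difference of Cdt1 was -0.84 (SE 0.35, adjusted p = 0.247).

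Cdc6, which brings Cdt1 and the MCM ring to the origin, overlapped between times. Its signals were 66.9, 114 and 43.4 at 12 h and 55.7, 66 and 46.7 at 24 h, and the difference of -0.26 (SE 0.30, adjusted p = 0.693) turned to 0.03 without replicate 2 of vehicle at 12 h. Orc6 differed by -0.48 and Orc1 by 0.21, and Gmnn, the licensing inhibitor, by 0.21, none past the threshold. The 95% interval of Gmnn ran from -0.40 to 0.82.

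Of the helicase activation genes, all 5 were lower at 24 h, with a median of -0.53. Cdc45, which joins the helicase when origins fire, had signals of 68.1, 94.4 and 40.7 at 12 h and 27.3, 43.1 and 30.9 at 24 h. These overlapped at a single pair of values, and the log2 difference was -0.71 (SE 0.28, adjusted p = 0.226). Mcm10 and the GINS subunits Gins1, Gins2 and Gins3 differed by -0.67, -0.53, -0.22 and -0.25.

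The polymerase and primase genes included the largest difference of the list. Pole, the catalytic subunit of the leading-strand polymerase, gave 95, 192 and 79.9 at 12 h and 40.2, 60.5 and 47.1 at 24 h. Every 24 h array lay below every 12 h array, the means were 122 ± 60.7 and 49.3 ± 10.4 (SD, n = 3 each), and the log2 difference was -1.01 (SE 0.31, adjusted p = 0.144), or -0.67 without replicate 2 of vehicle at 12 h. Pold1, the catalytic subunit of the lagging-strand polymerase, had 304, 551 and 393 at 12 h and 188, 235 and 299 at 24 h, which differed by -0.74 (SE 0.25, adjusted p = 0.174). The ranges of Pold1 came close without crossing. Pola1 and Pold2 also did not overlap, at -0.54 and -0.44, while the primase subunits Prim1 and Prim2 overlapped, at -0.45 and -0.24. The other tested probe set of Prim2 differed by -0.70.

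Pcna came nearest to the threshold. Its signals were 1438, 1650.3 and 1375 in the vehicle arrays of 12 h and 820.2, 1014 and 954 in those of 24 h. The means of 1488 ± 144 and 929 ± 99.4 (SD, n = 3 each) were separated by more than the spread of either time. The log2 difference was -0.67 (SE 0.14), with a 95% interval from -0.99 to -0.35 and an adjusted p of 0.0615. With the replicate number as a block, the adjusted p was 0.0442 for Pcna and 0.0461 for Cdt1, so 2 of the 37 genes passed, both lower, against 2.85% of all probe sets (0.995% lower). The deviations of same-numbered vehicle arrays of 12 and 24 h correlated in each of the 3 pairs, although the labels give them as separate pools.

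**Figure D2:**
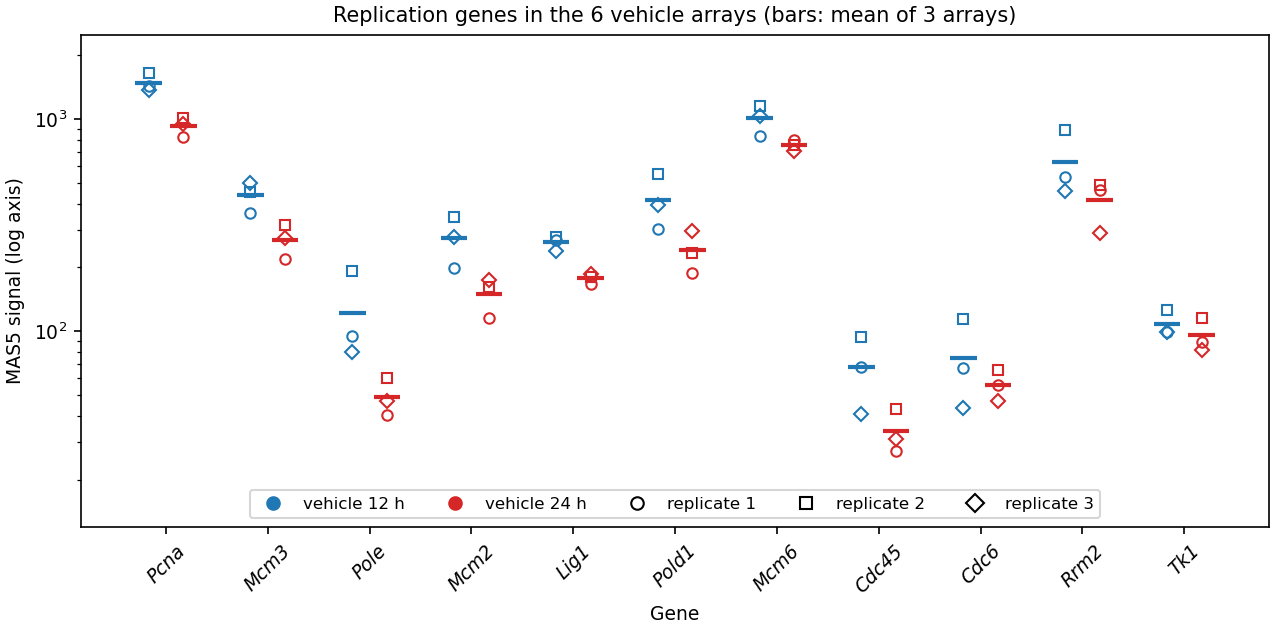
MAS5 signal (log axis) in the 6 vehicle arrays for the 8 replication genes with the smallest p between times and for Cdc6, Rrm2 and Tk1, with the replicate number as marker shape and the mean of 3 arrays as a bar. Pcna at 24 h, at 820.2 to 1014, lies below all 12 h arrays, while Cdc6 and Tk1 overlap, and levels of different genes are not comparable.

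Of the clamp loader subunits, none passed the threshold. Rfc3, Rfc4 and Rfc5 differed by -0.52, -0.45 and -0.45 between 12 and 24 h in vehicle, whereas the large subunit Rfc1 differed by 0.00 (95% interval -0.42 to 0.42) and Rfc2 by -0.03 (-0.44 to 0.38). The single-strand binding protein RPA, a trimer, had differences of -0.40 for Rpa1, -0.03 for Rpa2 and 0.33 for Rpa3. The other tested probe set of Rpa2 differed by -0.44. Differences between subunits were not tested. Lig1, the ligase that joins Okazaki fragments, had signals of 270.0, 279.7 and 239 at 12 h and 167, 180.3 and 187 at 24 h. These values lay far apart compared with their spread, at a log2 difference of -0.52 (SE 0.17, adjusted p = 0.152), and the flap endonuclease Fen1 differed by -0.54.

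Genes of deoxynucleotide supply had a median of -0.16, and all 3 were lower at 24 h. Rrm2, the regulated subunit of ribonucleotide reductase, gave 531, 893 and 458 at 12 h and 462, 491 and 292 at 24 h, with overlap and a log2 difference of -0.55 (SE 0.28, adjusted p = 0.341), which was -0.28 without replicate 2 of vehicle at 12 h and -0.33 without replicate 3 of vehicle at 24 h. Its partner Rrm1 differed by -0.09. Tk1, the salvage enzyme thymidine kinase, had 99.5, 126 and 99.1 at 12 h and 88.8, 116 and 81.8 at 24 h, which differed by -0.16 (SE 0.21, adjusted p = 0.748). Leaving out 1 vehicle array moved Tk1 between -0.29 (24 h replicate 2) and -0.059 (12 h replicate 2), with -0.069 without 24 h replicate 3. Chaf1b, of the chaperone that deposits histones behind the fork, differed by -0.03. For 20 of the 37 genes the 95% interval lay within ±1 on the log2(signal + 16) scale, which for dim genes still allows larger changes of the signal itself.

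The choice of probe set could be checked only in genes with several tested probe sets. Pcna, Pole, Lig1 and Cdc45 were among those with 1. Over all 66 tested probe sets of the list with 1 symbol, 60 were lower at 24 h and none passed the threshold. Of the 21 genes with several tested probe sets, 19 had them all on the same side, the exceptions being Rfc1 and Rfc2. The size of the difference varied within a gene, by up to 0.45. Without replicate 2 of vehicle at 12 h, which was the highest of the 6 vehicle arrays for 28 of the 37 genes, the median difference was -0.27.

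Related gene lists gave the context. Of 40 other tested replication genes, 37 were lower at 24 h in vehicle (median -0.29), and Pole3, a small subunit of polymerase epsilon, differed by -0.65 and Topbp1, which helps fire origins, by -0.62, while Rnaseh2a, a subunit of the RNase that removes ribonucleotides from DNA, was higher by 1.17 (SE 0.29). Of 26 G1/S regulators, 19 were lower (median -0.25), with E2f8, a repressor of the E2F family, at -1.08, Ccna2, the S-phase cyclin A, at -1.06 and the CDK inhibitor Cdkn1b at 0.82. All 36 tested mitosis genes were lower, with a median of -0.86, among them Top2a, the topoisomerase that untangles chromosomes, at -1.04 and Cdk1, the mitotic kinase, at -0.82. None of these 3 lists had a gene past the threshold, and 7, 10 and 25 of their genes had an unadjusted p under 0.05, against 18.6% of all probe sets. Of these, 6, 6 and 25 were lower at 24 h, against 7.91% of all probe sets. The mitosis median lay further from 0 than the replication median, a difference that was not tested.

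Markers of the cell types also differed between times. Of the 12 granulosa markers, 11 were higher at 24 h, with a median of 1.07, and Foxl2 and Fshr passed the threshold at 1.05 and 2.43. Fshr was dim in vehicle at 12 h, with a mean signal of 15.8. The summed signal of the 12 granulosa markers ran from 5301 to 9144 at 12 h and from 12315 to 13379 at 24 h, without overlap. Of the 11 endothelial markers, 10 were lower (median -0.66), with sums of 1586 to 5908 at 12 h and 1125 to 2452 at 24 h, and the oocyte markers had a median of 0.10. Of the 9 leukocyte markers 7 were higher (median 0.32), although Csf1r, the macrophage growth factor receptor, passed the threshold at -2.27. The 12 surface epithelium markers had a median of 0.65, with Upk3b past the threshold at 2.53, and the 11 theca and interstitial markers one of 0.37. The part of these shifts in the replication gene result was not tested.

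The same comparison could be made within each AMH dose, from a fit of the 17 arrays with the pool as a random block, which was added after the data were seen. In this fit 1 of the 37 genes passed in vehicle, Pcna (adjusted p = 0.0291), against 2.76% of all probe sets (1.08% lower). At 50 ng/mL 34 of the 37 genes were lower at 24 h (median -0.44), and 2 fell past the threshold, against 2.87% (1.13% lower). These were Pcna, by 0.75 (SE 0.17, adjusted p = 0.0281), and Mcm6, by 0.75 (SE 0.19, adjusted p = 0.0441). Pcna had signals of 1535 and 1501 in the 2 arrays of 12 h and 1056, 846 and 826 in those of 24 h. Mcm6 had signals of 993 and 1108 in the 2 arrays of 12 h and 584, 558 and 672 in those of 24 h at this dose. Neither gene overlapped between times, but both were named because they passed in these same arrays. The share of all probe sets without overlap at 50 ng/mL was not counted.

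At 200 ng/mL 31 of the 37 genes were lower at 24 h (median -0.45), and 8 passed, all lower, against 18.7% of all probe sets (6.42% lower). Cdt1 changed most of the 8, from 812, 748 and 677 at 12 h to 263, 331 and 289 at 24 h. In Prim1, the catalytic subunit of primase, the signals were 289, 415 and 260.0 at 12 h and 116, 165 and 119.6 at 24 h. In both genes every array of 12 h lay above every array of 24 h, and the log2 differences were -1.30 (SE 0.27, adjusted p = 0.00487) and -1.16 (SE 0.27, adjusted p = 0.00909). Pcna fell from 1540.1, 1561 and 1985 to 907, 843 and 959, a difference of -0.89 (SE 0.16, adjusted p = 0.00189). Rfc5 gave 154, 191 and 184 at 12 h and 84.7, 96.8 and 102 at 24 h. Mcm3 gave 553, 378 and 606 at 12 h and 288, 199.9 and 207 at 24 h. Neither of these 2 genes overlapped between times, and their differences were -0.79 (SE 0.19, adjusted p = 0.0105) and -1.08 (SE 0.25, adjusted p = 0.00806). The other 3 genes past the threshold were Pole, Mcm2 and Mcm6, and Mcm2 and Mcm6 differed by -0.77 (SE 0.24, adjusted p = 0.0353) and -0.53 (SE 0.17, adjusted p = 0.0446). For Pole the signals were 72.6, 155 and 41.4 at 12 h and 32.3, 39 and 25.4 at 24 h, for Mcm2 242, 344 and 171 against 132, 135 and 142, and for Mcm6 1222, 1057 and 783 against 713, 645 and 719.8. In these 3 genes replicate 3 was the lowest array of 12 h and still lay above every array of 24 h. The 8 genes were named because they passed in these same arrays. The share of all probe sets without overlap at this dose was not counted.

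Replicate 3 of 200 ng/mL at 12 h, the array with the lowest median signal, decided how many genes passed. Without it 17 of the 37 genes were called, among them all 8 named above, all lower at 24 h, with a median difference of -0.63, against 13.7% of all probe sets (5.44% lower). Mcm5 differed by -1.11 (adjusted p = 0.109) with the array and by -1.78 (SE 0.37, adjusted p = 0.00711) without it, and its signals at 12 h were 739.6, 486 and 122 and those at 24 h 169.9, 170.1 and 134. Rrm2 had 919.9, 791 and 179 at 12 h against 350.1, 331 and 338 at 24 h, and differed by -0.57 (adjusted p = 0.345) with that array and by -1.23 (SE 0.27, adjusted p = 0.00811) without it. In both genes the array left out was the lowest of the 6. The choice to leave out this array for the time comparison at 200 ng/mL was made after its values were seen. The counts at the 3 doses come from the same fit and are not tests of a difference between doses. That difference was tested as the change of the AMH effect from 12 to 24 h, in which no gene of the list and no probe set passed (limma) at 50 or at 200 ng/mL. At an unadjusted p under 0.05 there were 1 and 2 genes of the list, against 3.26% and 7.19% of all probe sets. Without replicate 3 of 200 ng/mL at 12 h the change at 200 ng/mL again called no gene, and its median went from -0.02 to -0.19.

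**Figure D3:**
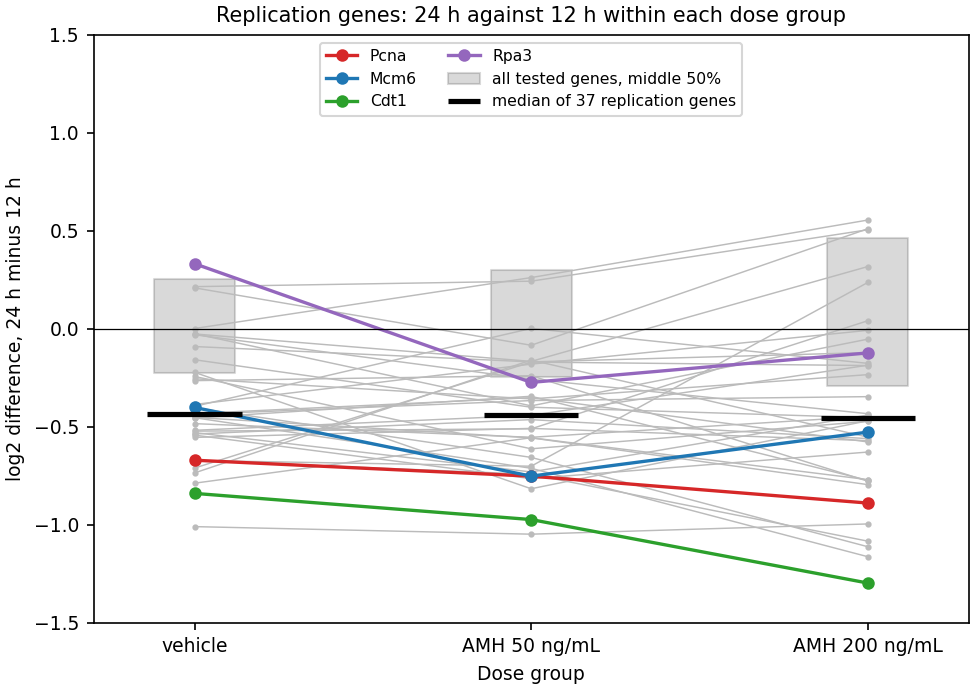
Log2 difference of 24 h minus 12 h for the 37 replication genes (lines) in vehicle, AMH 50 ng/mL and AMH 200 ng/mL, from the fit of 17 arrays, with Pcna, Mcm6, Cdt1 and Rpa3 in colour, the median of the 37 genes in black and the middle 50% of all tested genes in grey. The medians of -0.44, -0.44 and -0.45 lie close together, and Cdt1 goes from -0.84 in vehicle to -1.30 at 200 ng/mL.

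Viewed by array, the median of the 37 genes relative to the mean of the vehicle arrays of 12 h was between -0.26 and -0.59 in all 9 arrays of 24 h. At 12 h it was -0.17, 0.34 and -0.13 in vehicle, -0.10 and 0.09 at 50 ng/mL, and 0.11, 0.27 and -0.60 at 200 ng/mL. The value of -0.60 belongs to replicate 3 of 200 ng/mL, and the array set apart had -1.10. Without these 2 arrays the times did not overlap, but came as close as -0.17 at 12 h and -0.26 at 24 h. Replicate 3 of 200 ng/mL was left out here after its values were seen. Medians of all genes by array are not given on this scale.

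**Figure D4:**
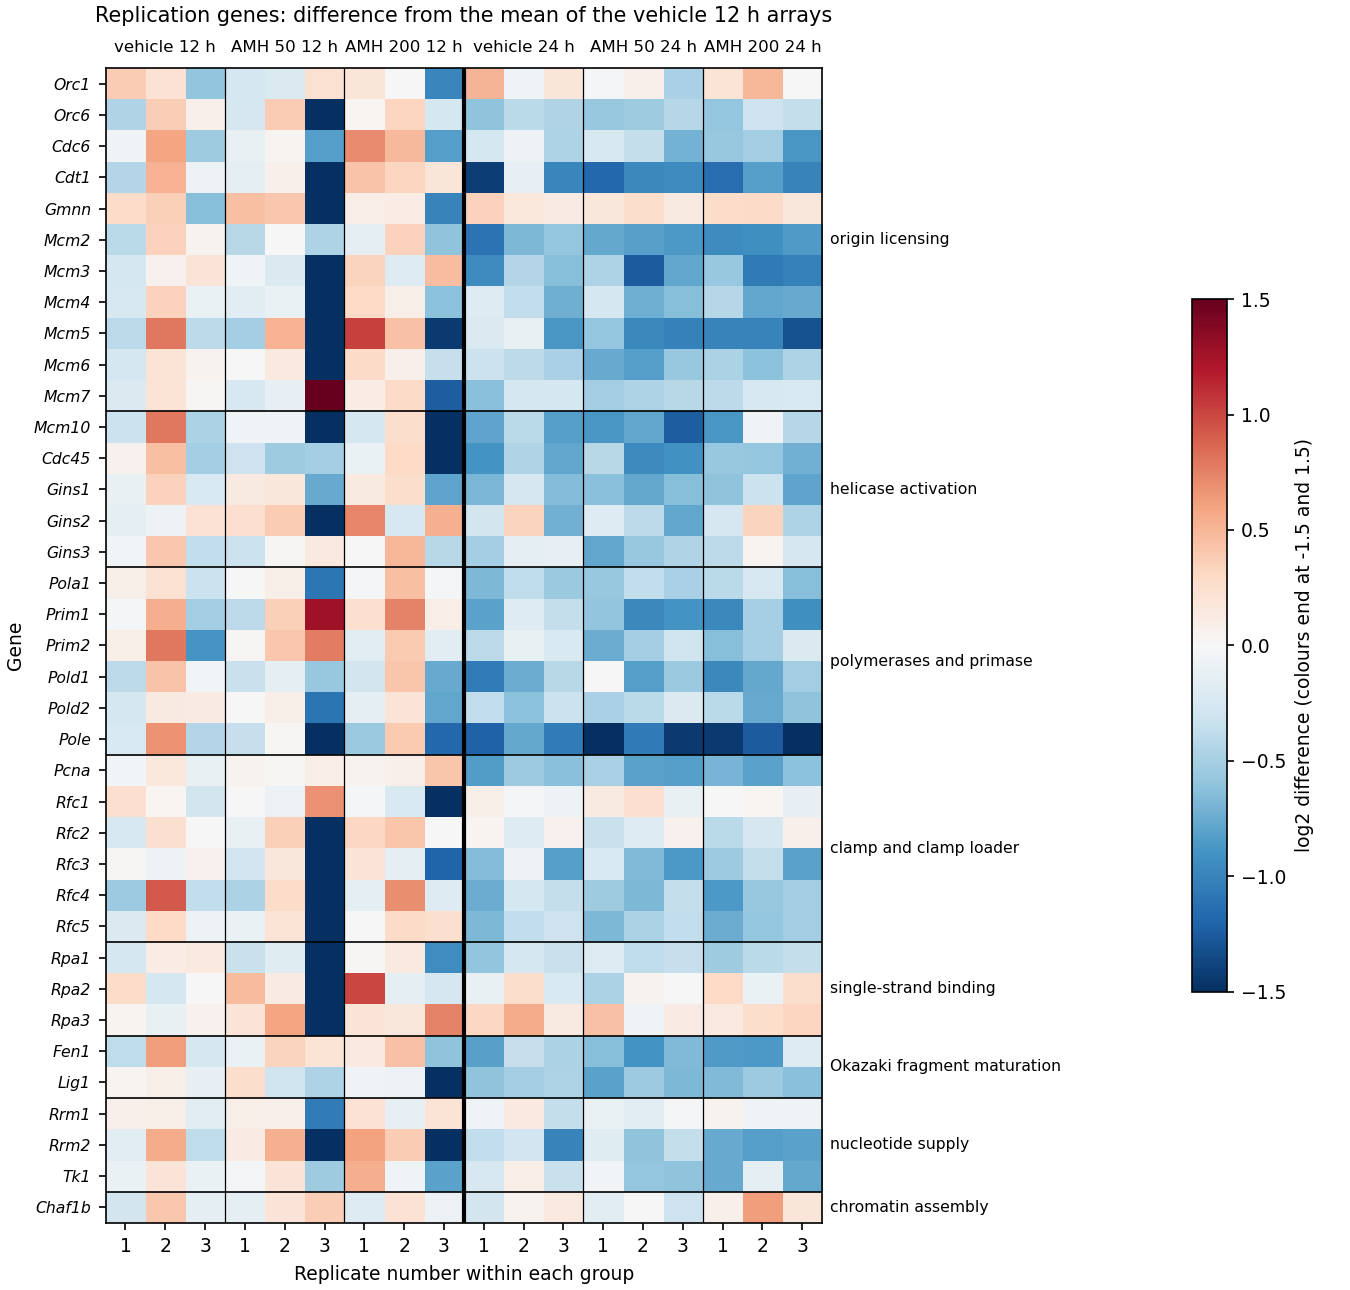
Log2 difference of each replication gene from its mean in the vehicle arrays of 12 h, in all 18 arrays, with the 12 h groups left and the 24 h groups right of the thick line and roles separated by horizontal lines. The 24 h side is mostly blue (lower), replicate 3 of AMH 50 at 12 h is the array set apart, and colours end at -1.5 and 1.5.

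Over the 17 arrays the median Pearson correlation between pairs of the 37 genes was 0.53, and 0.44 after the group means were removed, against 0.02 and 0.03 over pairs of all tested genes and 0.86 both before and after for the mitosis genes. These arrays share pools and overall signal, so the correlations describe this set of cultures. The median SD between the 3 vehicle arrays was 0.31 for the list at 12 h and 0.23 at 24 h, against 0.27 and 0.18 over all tested genes.

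The effect of AMH was assessed within pools, and no gene of the list passed the threshold at either dose or time. The 4 comparisons with vehicle share their vehicle arrays by time. At 24 h with 50 ng/mL, 31 of the 37 genes had a lower mean than vehicle (median log2 difference -0.13, against 0.00 over all genes), and 21 did when each array was centred on its median. None of the 22518 probe sets passed (limma, 0%), and at an unadjusted p under 0.05 there were 0 genes of the list and 2.7% of all probe sets. The median of the list was 0.06, -0.31 and -0.08 in the 3 pools, and it was 0.00 without pool 2. Lower values in every pool were found for 9 genes, against 12.2% of probe sets, and higher values in every pool for 1, against 10.8%.

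The smallest p at 50 ng/mL and 24 h belonged to Gins3, a GINS subunit, with 32, 46 and 46.5 in vehicle and 23.6, 29.8 and 34 with AMH. Every pool was lower with AMH, and the log2 difference was -0.35 (SE 0.17, adjusted p = 1.00). Mcm6 was also lower in each pool, at 796, 755 and 709.9 in vehicle and 584, 558 and 672 with AMH, which differed by -0.31 (SE 0.16). Pole gave 40.2, 60.5 and 47.1 against 29.1, 46.6 and 32.2, a difference of -0.33 (SE 0.20). For Prim1 the values were 131, 208 and 184 in vehicle and 155, 115 and 122 with AMH. Pool 1 of Prim1 was higher with AMH, and the difference was -0.37 (SE 0.20), or -0.66 without pool 1 and -0.16 without pool 2. Orc1, a subunit of the origin recognition complex, had 46.8, 26.6 and 34 in vehicle and 27.7, 30.4 and 15.4 with AMH, lower in 2 of 3 pools and different by -0.36 (SE 0.20), or -0.60 without pool 2 and -0.20 without pool 3. Pcna, Mcm2, Cdc6, Tk1 and Rrm2 differed by -0.03, -0.03, -0.17, -0.25 and 0.17. The 95% interval lay within ±1 for 36 of the 37 genes.

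At 24 h with 200 ng/mL, 25 of the 37 genes had a lower mean than vehicle, with a median of -0.09 against 0.01 over all genes. No probe set passed (limma, 0%), and at an unadjusted p under 0.05 there was 1 gene of the list, Pole, against 1.66% of all probe sets. The pool medians were -0.04, -0.21 and -0.03. In every pool 10 genes were lower, against 11.9% of probe sets, and 4 were higher, against 15.7%.

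Pole had signals of 40.2, 60.5 and 47.1 in vehicle and 32.3, 39 and 25.4 with 200 ng/mL, and the difference was -0.43 (SE 0.20, adjusted p = 1.00). Mcm5 had 304, 327 and 186 in vehicle and 169.9, 170.1 and 134 with AMH. All 3 AMH values of Mcm5 were below all vehicle values, and the difference was -0.70 (SE 0.34, 95% interval -1.44 to 0.04). It ran from -0.83 to -0.61 when 1 replicate was left out, and 1 alternative processing brought it to -0.28. The share of all probe sets with such a separation was not counted. Cdc6 gave 55.7, 66 and 46.7 against 42.2, 43.9 and 30.9, lower in each pool, at -0.39 (SE 0.21). In Prim1 the signals were 131, 208 and 184 in vehicle and 116, 165 and 119.6 with AMH, a difference of -0.34 (SE 0.20). Chaf1b went the other way in each pool, from 58.7, 77.4 and 83.8 to 79.4, 123 and 86.5, at 0.32 (SE 0.19), or 0.20 without pool 2. Tk1, Rrm2, Mcm2 and Pcna differed by -0.40, -0.24, -0.11 and -0.04. The 95% interval lay within ±1 for 36 genes.

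Between the 2 doses at 24 h no gene of the list passed after adjustment (limma, 0% of probe sets), and 16 of the 37 genes were lower at 200 than at 50 ng/mL, with a median of 0.04. After median centring 26 were lower and the median was -0.06. At an unadjusted p under 0.05 there were 2 genes, against 4.17% of all probe sets. These were Chaf1b, higher at 200 ng/mL by 0.45 (SE 0.19), and Gins3, higher by 0.40 (SE 0.17), both in each of the 3 pools. In Chaf1b the signals were 63.9, 74.8 and 56.9 at 50 ng/mL, and those at 200 ng/mL were all higher. In every pool 7 genes were lower and 8 higher at 200 ng/mL, against 11.6% and 17.2% of probe sets.

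At 12 h with 50 ng/mL, 28 of the 37 genes had a fitted difference below 0, with a median of -0.12 against -0.04 over all genes. This fit draws on pool 3 through its vehicle and 200 ng/mL arrays. In the plain mean of the 2 pools 25 genes were lower, the median was -0.076, and 7 genes had the opposite sign to the fit. With median centring 17 were lower and the median was 0.03. No probe set passed (limma, 0%), and 3 genes of the list had an unadjusted p under 0.05, against 5.71% of all probe sets. The pool medians were 0.09 and -0.21, and -1.12 in the pool of the array set apart, where the median over all tested genes was -0.78. In both pools 13 genes were lower and 6 higher, against 28.6% and 26.1% of probe sets.

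Cdc45 had 68.1 and 94.4 in vehicle and 49 and 40.0 with 50 ng/mL in the 2 pools, and the fitted difference was -0.81 (SE 0.28, adjusted p = 0.862), with a 2-pool mean of -0.68. Rpa3 gave 332 and 297 against 371 and 493, a fitted difference of 0.50 (SE 0.20) that was 0.80 without pool 1 and 0.28 without pool 2, while the array set apart had 68.9. Orc1 gave 41.2 and 35.2 against 20.7 and 21.8, at -0.57 (SE 0.23). In all 3 genes both pools went the same way, while the array set apart differed from vehicle of its pool by 0.00 for Cdc45, 0.82 for Orc1 and -2.06 for Rpa3. Pole gave 95 and 192 against 86.8 and 115, at -0.46 (SE 0.23), or -0.78 without pool 1 and -0.21 without pool 2, and Gins3 50.3 and 74.3 against 38.3 and 53, at -0.36 (SE 0.20). The fitted differences of Pcna, Tk1 and Rrm2 were 0.07, -0.12 and -0.13, while their 2-pool means had the other sign, at -0.021, 0.029 and 0.13. Mcm2 and Cdc6 had -0.32 and -0.41 in the fit and -0.19 and -0.30 in the 2-pool mean. The 95% interval lay within ±1 for 32 genes.

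At 12 h with 200 ng/mL the list was split, with 19 genes lower and 18 higher than vehicle and a median of -0.00, against -0.07 over all genes. No probe set passed (limma, 0%), and 4 genes of the list had an unadjusted p under 0.05, all lower, against 11.4% of all probe sets. The pools disagreed, with medians of 0.26, -0.16 and -0.37, the last in the array of lowest median signal. In every pool 6 genes were lower and 3 higher, against 14.4% and 8.77% of probe sets.

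The genes with the smallest p had their lowest value in pool 3. Rfc1 had 349, 297 and 238 in vehicle and 288, 247 and 90.2 with 200 ng/mL, and Lig1 had 270.0, 279.7 and 239 against 251, 247 and 63. Both were lower in every pool, by little in the first 2, and the differences were -0.59 (SE 0.18, adjusted p = 0.432) and -0.65 (SE 0.26, adjusted p = 0.432). Without pool 3 these became -0.26 and -0.13. Mcm10 gave 58.7, 146 and 50.8 against 61.4, 95.9 and 6.33, at -0.69 (SE 0.29), at -0.24 without that pool and at -1.06 without pool 1. Pole gave 95, 192 and 79.9 against 72.6, 155 and 41.4, at -0.45 (SE 0.20), and Gmnn 325, 345 and 165 against 285, 287 and 124, at -0.27 (SE 0.12). These last 2 were lower in each pool and were at -0.30 and -0.22 without pool 3. Pcna, Cdc6, Tk1, Mcm2 and Rrm2 differed by 0.18, 0.12, -0.10, -0.13 and -0.23. The 95% interval lay within ±1 for 35 genes.

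**Figure D5:**
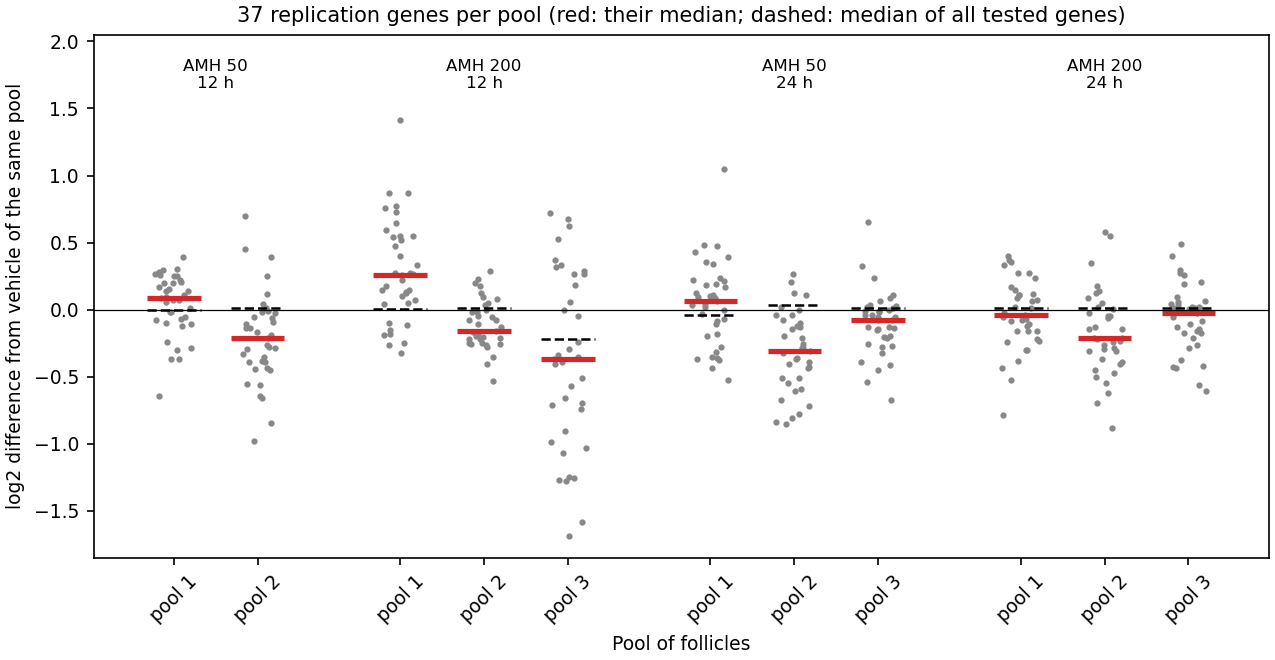
Log2 difference of each of the 37 replication genes (points) from vehicle of the same pool, for both AMH doses and both times, with the median of the 37 genes in red and that of all tested genes dashed. Medians run from 0.26 in the first pool of 200 ng/mL at 12 h to -0.37 in pool 3, and the pool of the array set apart is not drawn.

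By role, at 24 h all 11 licensing genes and all 5 helicase activation genes were below vehicle at 50 ng/mL. Their medians were -0.16 and -0.23, and 49.1% of all tested genes were lower. Median centring adds 0.11 to each difference at this dose. It puts Orc6, Gmnn, Mcm2, Mcm7 and Cdc45, at -0.02, -0.02, -0.03, -0.08 and -0.05, above vehicle. At 200 ng/mL 7 of 11 and 1 of 5 were below vehicle, with medians of -0.12 and 0.09, against 47.6% of all tested genes. All 6 clamp and clamp loader genes were below vehicle at 200 ng/mL, at a median of -0.11. The other replication genes had 31 of 40 lower at 50 ng/mL (median -0.13) and 19 of 40 lower at 200 ng/mL (median 0.01), and the mitosis genes 36 of 36 (median -0.31) and 31 of 36 (median -0.16). These counts and medians are also before median centring. None of these genes passed the threshold in an AMH comparison, and at an unadjusted p under 0.05 the mitosis genes had 5 and 0 at 50 and 200 ng/mL, against 2.7% and 1.66% of all probe sets.

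Several marker lists had medians further from 0 than the replication genes. All 17 oocyte markers were lower with 50 ng/mL than with vehicle, at medians of -0.82 at 24 h and -0.88 at 12 h, while at 200 ng/mL the medians were 0.01 and 0.08. All 9 leukocyte markers were lower at 24 h at both doses, with medians of -0.71 and -0.94, and so were all 12 surface epithelium markers, with -0.63 and -0.66. At 12 h 11 surface epithelium markers were higher at 50 ng/mL and 12 at 200 ng/mL, with medians of 0.38 and 0.56. The leukocyte medians at 12 h were -0.19 and -0.0044. With 50 ng/mL the theca and interstitial markers had medians of -0.51 at 12 h and 0.28 at 24 h, and with 200 ng/mL 0.04 and -0.06. The granulosa markers had medians of -0.20 at 50 ng/mL and 0.14 at 200 ng/mL at 24 h. None of these markers passed the threshold against vehicle, and their part in the replication gene values was not tested.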

How the data were processed

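RNA of 18 follicle cultures, amplified from 5 ng, was hybridised to Affymetrix whole-genome mouse arrays. The deposited values are probe set intensity computed by the authors with MAS5, per the submitters' processing notes (version not given), on a linear scale, with a 2% trimmed mean of 150 on every array. They were used without further normalization as log2(signal + 16). Of 45101 probe sets, 64 were controls, 34945 of the others had 1 symbol, 932 several and 9160 none. The 22518 above the 50th percentile of mean log2 level were tested. Intensity on arrays gives no counting depth, and the number of arrays limits the precision.

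R 4.3.3 with limma 3.58.1 (linear models, eBayes with an intensity trend) served for dose effects on 17 arrays with the pool as a fixed block, and for time in vehicle on 6 arrays without a block. Through the block, the 50 ng/mL estimate at 12 h draws on the other 2 arrays of pool 3, so the mean of the 2 pool differences was added after the data were seen. Tests were two-sided and Benjamini-Hochberg adjusted over all probe sets, with a threshold of 0.05. The labels state that each pool was divided over the doses, and same-pool deviations from group means correlated at 0.123 to 0.497. Vehicle arrays of the same number at 12 and 24 h correlated at 0.318, 0.261 and 0.207. One label field of the AMH samples titled 12 h reads 24 h instead, and the title and source were followed. P-values, SEs and intervals of the dose comparisons rest on the spread between arrays that remains after the pool block, shared by both times. The median SE over all probe sets was 0.204 at 24 h and for 200 ng/mL at 12 h. Fits of each time alone gave 0.160 and 0.252. In these, 2 and 3 list genes had an unadjusted p under 0.05 (limma) at 24 h with 50 and 200 ng/mL. The shares of all probe sets were 5.79% and 4.36%. At 12 h it was 1 gene at each dose, against 2.33% and 3.59%. P-values of the time comparison in vehicle rest on the spread between pools of the same time.

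The genes and lists were chosen with earlier results of these data known. Named genes were all past the threshold (up to 12), the 5 with the smallest p against vehicle, the 8 with the smallest p between times, and Mcm2, Pcna, Cdc6, Rrm2 and Tk1, with up to 4 per related list. On simulated data with this spread (22518 probe sets, 200 changed), a log2 change of 1 was called in 57% at 24 h with either dose, 43% and 54% at 12 h with 50 and 200 ng/mL, and 33% for time. A change of 2 was called in 95%, 94%, 91%, 95% and 80%. Alternatives changed the arrays, block, pseudocount (1 or 50), scaling, filter, trend, array weights, probe sets per gene and replicates. Figures used matplotlib 3.10.9 in python 3.11.15.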

Additional observations from a re-analysis of the deposited data

How the results depend on the processing

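For the replication genes, 130 of the 134 medians and 128 of the 134 counts of called genes obtained under alternatives stayed within the tolerance used, as did 482 of 488 values of named genes, and the cause of the exceptions was not tested. The tolerance was 1 SD between pools (or arrays) for a median, 1.5 times for a count, and the same sign and side of the threshold for a gene, so a median could move by more than its own size: for 50 ng/mL at 24 h it was -0.021 after median centring against -0.13. With array weights 1 gene was called for 50 ng/mL at 24 h (Orc1, -0.59), 1 for 200 against 50 ng/mL and 1 for time (Pcna), and the probe sets called numbered 1011, 513 and 778, with 8 for 200 ng/mL at 24 h. Estimating these weights gave a convergence warning for some probe sets, and Orc1 lay just inside the filter. In the time comparison the replicate block called 2 genes and 642 probe sets, the random block 1 and 622, pseudocount 1 gave 156 probe sets, no filter 60, the 75th percentile filter 132 and the mean of all probe sets of a gene 179. Median centring turned the median of 200 against 50 ng/mL to -0.060, and it shifted all differences by 0.11, 0.01, 0.14 and 0.07 (50 and 200 ng/mL at 24 h, then at 12 h) and by -0.10 for time. With all 18 arrays the median for 50 ng/mL at 12 h was -0.34, the change of its effect to 24 h 0.32 and Rpa3 -0.40. Leaving out 1 replicate in turn gave medians of -0.24 to 0.00 and -0.10 to -0.02 at 24 h, -0.30 to -0.04 and -0.27 to 0.10 at 12 h (50, then 200 ng/mL), and -0.52 to -0.27 for time. Probe sets called for time were 35 without vehicle 12 h replicate 2, 555 without replicate 3, and 1, 0 and 0 without each vehicle 24 h array. Without replicate 2, 4 and 226 probe sets were called at 12 h (50 and 200 ng/mL), 3 for the change of the 50 ng/mL effect, and with 24 h arrays alone 1 at 50 ng/mL. For Cdc6 in time, leaving out 1 array gave -0.53 to 0.032, the latter without vehicle 12 h replicate 2. The time comparison at 200 ng/mL called 17 genes, with a median of -0.63, without replicate 3 at 12 h. With 2 or 3 arrays a group, simulated log2 changes of 1 were called in 33% to 57% and changes of 2 in 80% to 95%. Changes of these sizes, and smaller ones, could therefore be missed.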
